A study of Mus musculus with 18 samples.

Results

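SSEA1+ cells are mouse cells taken during reprogramming of fibroblasts to pluripotency and separated by the surface antigen SSEA1, a carbohydrate that mouse pluripotent cells carry and fibroblasts lack. Here the 2 samples of female SSEA1+ cells were set against the 4 samples of female mouse embryonic fibroblasts (MEF), the cell type from which such cultures start. These are 6 of the 18 samples of the series, and their labels give their groups. The labels give cell type and sex, and the series text calls the SSEA1+ and SSEA1− populations reprogramming intermediates. The labels analysed here do not give the reprogramming factors, the day, the strain, the age or the gate, nor whether replicates were separate cultures or animals. The p-values below therefore reflect sample-to-sample spread, part or all of which may be technical. The other samples, used only beside the results, were 2 of female SSEA1− cells, 2 of female induced pluripotent stem cells (iPSC), 4 of female and 2 of male embryonic stem cells (ESC), and 2 of male MEF.

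DNA methylation at CpG dinucleotides is copied to new strands by Dnmt1, set anew by Dnmt3a and Dnmt3b, and removed by dilution at replication or by oxidation through Tet enzymes. In fibroblasts most CpGs outside CpG islands are methylated, most island promoters are not, and promoters of germline genes are a known exception that somatic cells keep methylated. Pluripotent cells carry less methylation at many of these sites, and imprinted control regions carry it on a single parental allele.

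A few promoters are shown with their CpGs in capitals. None of them passed the thresholds for a changed promoter given below. The letters are RefSeq promoter sequences of build GRCm38.p6, 250 bases before to 50 after the gene start, written 5′ to 3′ on the strand of the gene. Their places on mm9, the build of the data, were found by matching the spacing of their CpGs to the CpG positions read in the libraries. The first 3 belong to germline genes whose methylation was close to that of MEF in SSEA1+ cells. Hormad1 encodes a protein of the meiotic chromosome axis, Mael a protein that acts in transposon silencing in the germline, and Slc25a31 the ATP/ADP carrier of sperm mitochondria. The other pair had lower values in both SSEA1+ samples than in every MEF sample. Lep encodes the hormone leptin and Adgrl4 an adhesion receptor of endothelial cells.
Hormad1 promoter, chr3:95363349-95363648 (mm9), plus strand: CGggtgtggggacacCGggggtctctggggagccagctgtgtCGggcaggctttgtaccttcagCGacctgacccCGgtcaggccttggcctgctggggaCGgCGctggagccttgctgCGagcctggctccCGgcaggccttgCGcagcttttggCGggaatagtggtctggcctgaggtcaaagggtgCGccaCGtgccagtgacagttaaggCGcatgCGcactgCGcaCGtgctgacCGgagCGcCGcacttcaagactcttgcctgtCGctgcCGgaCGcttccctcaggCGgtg
Mael promoter, chr1:168168826-168169125 (mm9), minus strand: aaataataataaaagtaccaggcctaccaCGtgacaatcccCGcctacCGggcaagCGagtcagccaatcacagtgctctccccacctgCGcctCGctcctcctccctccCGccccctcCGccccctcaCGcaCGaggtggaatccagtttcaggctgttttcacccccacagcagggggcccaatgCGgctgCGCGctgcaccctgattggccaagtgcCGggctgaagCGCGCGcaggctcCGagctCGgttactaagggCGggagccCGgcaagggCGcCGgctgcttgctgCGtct
Slc25a31 promoter, chr3:40512543-40512842 (mm9), plus strand: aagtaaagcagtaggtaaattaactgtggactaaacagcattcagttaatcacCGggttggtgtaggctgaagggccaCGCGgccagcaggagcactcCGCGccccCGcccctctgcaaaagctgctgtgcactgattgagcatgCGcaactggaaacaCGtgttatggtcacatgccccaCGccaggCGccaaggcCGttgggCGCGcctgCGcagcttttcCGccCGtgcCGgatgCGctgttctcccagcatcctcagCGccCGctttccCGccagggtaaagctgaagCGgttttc
Lep promoter, chr6:29009971-29010270 (mm9), plus strand: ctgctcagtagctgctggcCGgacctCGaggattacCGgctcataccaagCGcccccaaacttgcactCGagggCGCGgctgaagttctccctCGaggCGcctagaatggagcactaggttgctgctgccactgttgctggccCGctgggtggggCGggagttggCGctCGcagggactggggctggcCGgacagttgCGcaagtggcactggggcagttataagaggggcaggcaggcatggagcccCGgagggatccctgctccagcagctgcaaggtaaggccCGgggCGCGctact
Adgrl4 promoter, chr3:151100596-151100895 (mm9), plus strand: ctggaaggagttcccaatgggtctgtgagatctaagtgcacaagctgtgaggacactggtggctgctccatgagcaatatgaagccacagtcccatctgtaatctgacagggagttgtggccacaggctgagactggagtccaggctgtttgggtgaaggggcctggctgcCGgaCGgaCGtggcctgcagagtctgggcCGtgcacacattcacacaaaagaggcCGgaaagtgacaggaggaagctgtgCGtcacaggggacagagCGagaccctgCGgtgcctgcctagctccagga

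The Hormad1, Mael and Slc25a31 sequences each hold the letters CACGTG, an E-box that reads the same on both strands. Of the 7 germline promoters with at least 20% methylation in male MEF described below, 4 hold it, against 7.15% of all 32851 promoter sequences in the table. The E-box holds a CpG, and many of those sequences have under 6 CpGs, so this background is not matched for CpG number. The sequences of the imprinted genes Igf2r, Mcts2 and Plagl1 hold it too, and that of Zrsr1 does not. A match describes these letters and shows no binding.

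Methylation was read by reduced representation bisulfite sequencing, in which a restriction digest enriches CpG-rich fragments and bisulfite converts unmethylated cytosines. SSEA1+ 1 and 2 held 23566525 and 11833113 CpG reads, against 15691149 to 46130295 in the 4 MEF samples. A read counts once for each CpG it covers. The libraries differed in how many CpGs had reads from both strands, with no reason given in the labels. That share was 15.99% and 15.3% in SSEA1+ 1 and 2, and 11.50%, 15.9%, 7.29% and 7.42% in MEF 1 to 4. MEF 2 is thus the only female MEF library like those of SSEA1+ cells, and differences from it are given beside the others. MEF 3 and 4 were nearly interchangeable: their tile levels correlated at r = 0.9946 over tiles, and their counts differed by a mean chi-square of 1.33 per tile, against 2.48 to 12.4 for the other pairs. That is above the value of 1 for sampling noise alone, but this value holds only for independent reads. CpGs on the same read are not independent, so 1.33 does not show separate replicates. The plan was to sum MEF samples that agree within sampling noise to 1 replicate in the main fit, with no bound given. Whether MEF 3 and 4 meet this is not settled by 1.33. They were counted as separate samples, and results are also given with their reads summed, where 0 tiles were called. SSEA1+ 1 and 2 correlated at r = 0.9615, with a mean chi-square of 3.88 per tile. SSEA1+ 1 correlated more closely with MEF 1 and 2, at r = 0.9682 and 0.9686, and less with MEF 3 and 4, at 0.9573 and 0.9585. For SSEA1+ 2 the correlations with MEF 1 to 4 were 0.9504, 0.9521, 0.9374 and 0.9387. The samples are few, and library type, which moves with MEF 3 and 4, cannot be told apart from them.

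SSEA1+ cells had lower autosomal methylation than MEF, and the gap was widest in absolute terms at sites of intermediate and high methylation. Over 229315 CpGs with at least 5 reads in all 6 samples, the level was 50.3% and 48.5% in SSEA1+ 1 and 2, against 51.6%, 50.7%, 52.7% and 52.7% in MEF 1 to 4. The groups did not overlap. The difference was -2.51 points, and -1.30 points from MEF 2 alone. Its size depended on the CpGs compared: over each sample's own CpGs it was -12.6 points, and -4.74 from MEF 2, and weighted by reads it was -10.4 points, and -6.43 from MEF 2. Its 2-sided exact permutation p was 0.0667, the smallest that 15 relabellings allow, and 0.167 after Benjamini-Hochberg adjustment over the 5 level comparisons. Without SSEA1+ 2 the difference was -1.61 points.

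Fixed windows (tiles) of 1 kb were grouped by their level in male MEF, which took no part in the comparison. The 15317 tiles at 80 to 100% in male MEF averaged 82.8% ± 1.26 in SSEA1+ cells (SD, n = 2) and 86.3% ± 0.507 in MEF (SD, n = 4). This difference of -3.52 points was -2.77 points from MEF 2, and both SSEA1+ samples lay under all 4 MEF samples. At 20 to 80% in male MEF, 7499 tiles averaged 50.2% ± 3.10 in SSEA1+ cells and 54.9% ± 2.40 in MEF (SD). SSEA1+ 1, at 52.4%, lay above MEF 2 there, at 52.1%, so the groups overlapped. The difference in this class was -4.66 points over all MEF, -1.86 from MEF 2 and -2.04 without SSEA1+ 2.

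Tiles of low methylation in fibroblasts were low on average in SSEA1+ cells too. The 17362 tiles at 0 to 20% in male MEF averaged 1.95% ± 0.282 in SSEA1+ cells and 2.92% ± 1.11 in MEF (SD), a difference of -0.962 points that turned to 0.257 points against MEF 2. Dense tiles, with 30 or more CpGs, averaged 7.46% ± 0.238 in SSEA1+ cells and 8.80% ± 0.9996 in MEF (SD). Their difference of -1.34 points was -0.239 points from MEF 2. The 2-sided exact permutation p was 0.0667 for the highest class and 0.133 to 0.267 for the other 3, and none was under 0.167 after adjustment.

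**Figure D1:**
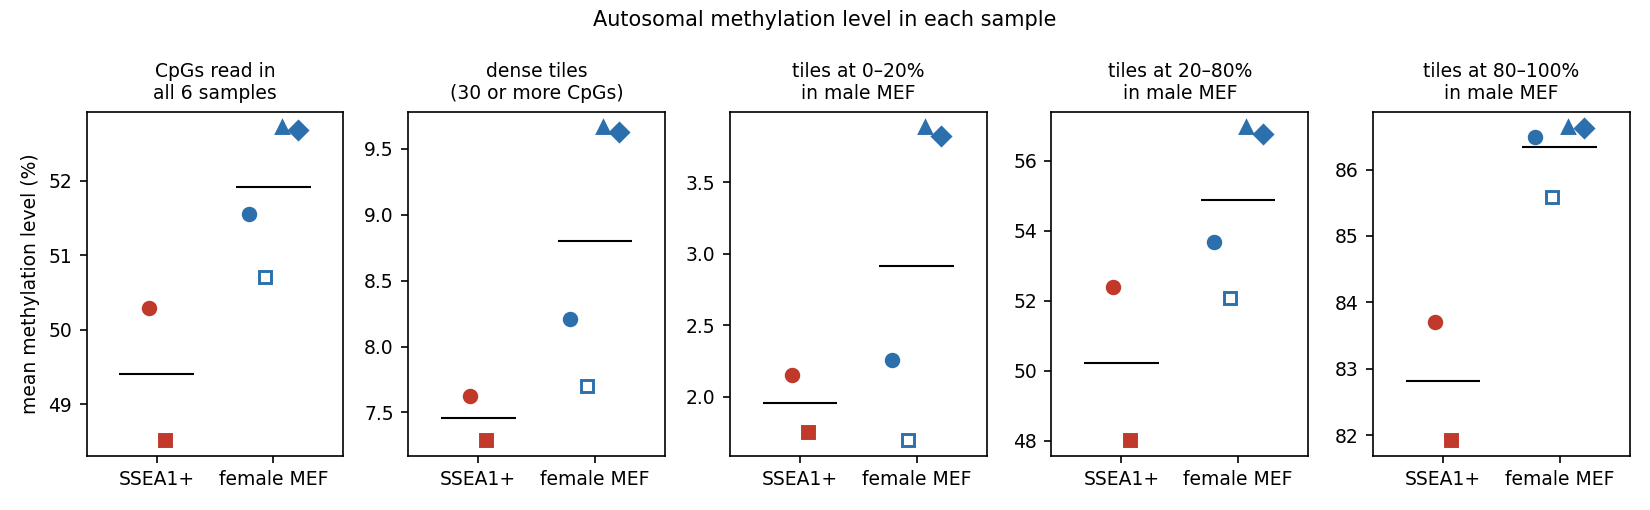
Mean methylation level in percent (vertical axis, its range set per panel and not starting at 0) of each SSEA1+ and female MEF sample over shared CpGs and over 4 classes of 1 kb tiles. Circles, squares, triangles and diamonds are samples 1 to 4, the open square is MEF 2 and lines are group means; MEF 3 and 4 lie at or near the top of each panel, and both SSEA1+ samples lie lowest only over shared CpGs, dense tiles and tiles at 80 to 100%.

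Single tiles changed more, and mostly downward. Of 41213 autosomal tiles with at least 3 CpGs in each of the 6 samples, 355 (0.861%) were lower and 73 (0.177%) higher in SSEA1+ cells. A call needed both a difference of 20 points or more and an adjusted p under 0.05 in a quasi-binomial logistic model with Benjamini-Hochberg adjustment. Lower tiles made up 82.9% of the 428 called. In all 428 the 2 groups did not overlap, which held for 24.7% of all tiles. The median difference was -39.9 points in the lower tiles and 30.4 points in the higher tiles, beside -0.785 points over all tiles. These calls needed MEF 3 and 4 as separate samples: with their reads summed, without MEF 3 or without MEF 4, the same model called 0 tiles, although 7408, 6108 and 5640 tiles had an unadjusted p under 0.05. With MEF 3 and 4 summed, the 12 lower tiles named below by rule differed by -85.0 to -64.1 points. Over all samples they differed by -84.3 to -65.7 points. Their smallest adjusted p in the same model with the reads summed was 0.0654. These tiles were chosen for large differences in these samples, and MEF 3 and 4 had nearly the same levels. The small shift therefore describes the tiles and tests nothing. Without MEF 1, 22 tiles were called lower and 1 higher, and without MEF 2, 646 and 105. Without SSEA1+ 1, 61 were lower and 1 higher, and without SSEA1+ 2, 67 and 18. Fitted with limma on log2 ratios, 29 tiles were lower and 3 higher.

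The called tiles also differed from MEF 2, the library of the same type. Of the lower tiles, 305 (85.9%) were at least 20 points under MEF 2 in both SSEA1+ samples, against 1.96% of all tiles. Of the higher tiles, 55 (75.3%) were at least 20 points above MEF 2 in both, against 1.07% of all tiles. MEF 2 took part in choosing these tiles, so this describes them and tests nothing. Libraries also read different CpGs, so the difference was recomputed over CpGs that reached 5 reads in every sample. Of 222 lower tiles with at least 3 such CpGs, 211 kept a difference of 20 points, and of 53 higher tiles 49 did. The other called tiles had too few such CpGs to be checked. The calls rest on the same reads, so this too describes the tiles and tests nothing. Tested over such CpGs alone, fewer tiles were called, as given under the processing alternatives below.

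Pairs of libraries that share no sample gave a second view, with no test. SSEA1+ 1 was at least 20 points under female MEF 2 at 1366 of 41080 tiles (3.33%), and SSEA1+ 2 was as far under male MEF 1 at 3821 (9.30%). These lists had 753 tiles in common, 55.1% of the first and 19.7% of the second. In the higher direction the lists held 1153 tiles (2.81%) and 581 tiles (1.41%), with 173 in common, 15% of the first and 29.8% of the second. In all 4 of these libraries 15.3 to 16.1% of CpGs were read on both strands.

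Lower tiles were incomplete losses in most cases. In SSEA1+ cells, 98 of the 355 stood under 20%, 180 at 20 to 50% and 77 at 50% or more, while 276 stood at 60% or more in MEF. Their median level was 33.8% and 28.9% in SSEA1+ 1 and 2, against 76.9%, 76.5%, 78.1% and 79.0% in MEF 1 to 4. Of the 73 higher tiles, 43 stood under 20% in MEF and 35 at 50% or more in SSEA1+ cells. The median of higher tiles was 52.2% and 48.3% in SSEA1+ 1 and 2, and 13.6 to 15.1% in the 4 MEF samples.

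**Figure D2:**
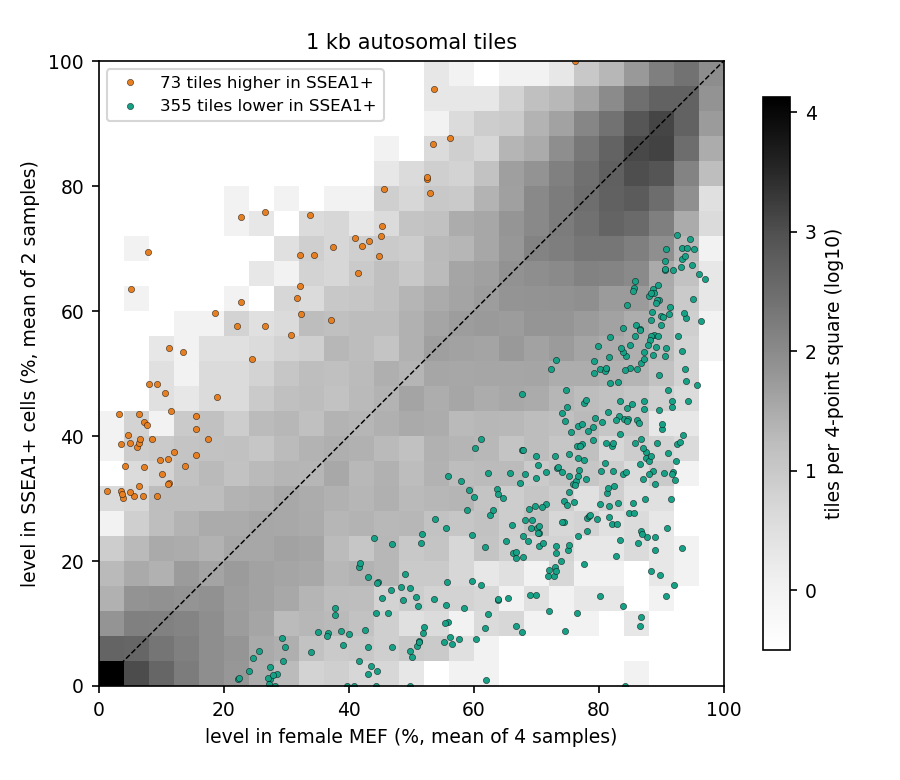
Level of 41213 autosomal tiles in SSEA1+ cells (vertical axis, percent, mean of 2 samples) against female MEF (horizontal axis, percent, mean of 4 samples), as grey squares shaded by the log10 number of tiles; the dashed line marks equal levels. The 355 lower tiles lie under the line, most at 60% or more in MEF, and the 73 higher tiles above it, 43 of them under 20% in MEF.

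The called tiles were CpG-poor and seldom held a gene start. Tiles of 3 to 5 CpGs were lower in 1.68% of cases and those of 6 to 10 in 1.46%, against 0.427% of those with 11 to 20 and 0.0151% of dense tiles. Tiles of 3 to 5 CpGs averaged 67.4% in MEF and dense tiles 8.80%, so fewer dense tiles had room to be lower by 20 points. The lower tiles held a median of 6 CpGs, the higher 7 and all tiles 11. With fewer CpGs came fewer CpG reads: the median was 100 in the lower and 118 in the higher tiles, against 144.5 over all tiles. By distance, 2 lower and 1 higher tile fell among the 5318 that held a placed gene start, whereas 1.02% of tiles within 5 kb of one were lower, 1.55% at 5 to 20 kb, 1.39% at 20 to 100 kb and 0.651% over 100 kb from any placed start. Tiles at starts averaged 1.53% in SSEA1+ cells and 2.55% in MEF, so few of them could have been lower by 20 points. Only 6763 genes could be placed on mm9, so a tile may lie nearer to a gene that was not placed.

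By their level in male MEF, lower calls were most frequent among tiles at 40 to 60% (2.57%) and 60 to 80% (2.53%), against 1.14% at 80 to 100%. Higher calls made up 1.25% of tiles at 20 to 40% and 1.10% at 40 to 60%, and 0.156% of those at 0 to 20%. Among chromosomes, the share of lower tiles ran between 0.299% on chromosome 13 and 1.34% on chromosome 11. The single dense tile called, on chromosome 3 (94976001 to 94977000, 39 CpGs), was named after its value was seen. It stood at 41.1% and 37.99% in SSEA1+ 1 and 2, against 65.8%, 57.1%, 59.2% and 62.8% in MEF 1 to 4. In iPSC it stood at 5.59% and in female ESC at 6.92%. Over the 12 CpGs that SSEA1+ 1, SSEA1+ 2 and MEF 2 shared, its difference was -14.0 points, and over the 3 CpGs with 5 reads in every sample it was -7.17 points.

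**Figure D3:**
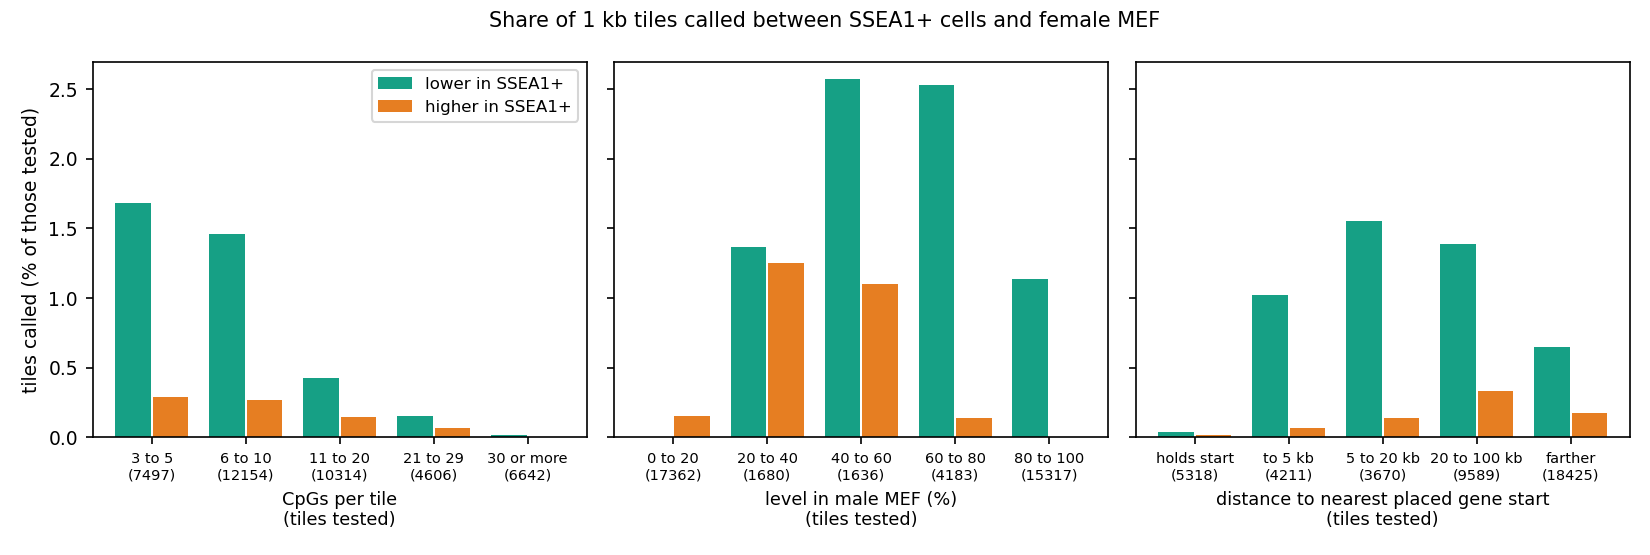
Percentage of tested tiles called lower (green) and higher (orange) in SSEA1+ cells (vertical axis, from 0), by CpGs per tile, level in male MEF and distance to the nearest placed gene start, with the number of tiles tested under each pair of bars. Lower calls fall to 0.0151% in dense tiles and to 0.0376% in tiles that hold a placed start, classes that average 8.80% and 2.55% in female MEF.

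The largest loss was complete. A tile on chromosome 11 (97687001 to 97688000, 26.1 kb from the placed start of Lasp1, an actin-binding protein of focal adhesions) was unmethylated in both SSEA1+ samples, at 0% of 147 and 117 CpG reads, against 85.7%, 86.7%, 83.3% and 81.5% in MEF 1 to 4 (adjusted p = 0.00569). It holds 3 CpGs, at 97687929, 97687934 and 97687944. At the first, no read was methylated of 49 in SSEA1+ 1 and 39 in SSEA1+ 2, against 18 of 20 in MEF 2. The tile was low in SSEA1− cells too, at 12.96%, and in female ESC, at 6.60%, but not in male MEF, at 92.2%. Neighbouring CpGs of a tile share reads, so CpG reads are not independent molecules.

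A second tile on chromosome 11 (76171001 to 76172000, 40.6 kb from the placed start of Nxn, an oxidoreductase that binds Dishevelled) stood at 0% and 19.05% in SSEA1+ 1 and 2. MEF 1 to 4 stood at 93.0%, 80.6%, 88.2% and 84.8% there (adjusted p = 0.0180). The 0% in SSEA1+ 1 covers 3 of the 6 CpGs, with 0 of 22 reads methylated at each. The other 3 CpGs had 3 reads each in SSEA1+ 1, under the minimum, of which 0, 3 and 3 were methylated. Over the 3 CpGs with 5 reads in every sample the difference was -75.9 points, and -61.4 points from MEF 2. SSEA1− cells, at 23.8%, iPSC, at 7.47%, and both ESC groups, at 1.54% in females and 3.98% in males, were low as well.

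Other losses were not seen in SSEA1− cells or iPSC. On chromosome 19 (16158001 to 16159000, 48.2 kb from the placed start of Gnaq, a G protein subunit), SSEA1+ 1 and 2 stood at 21.2% and 11.1%, against 92.9%, 94.4%, 93.1% and 87.7% in MEF 1 to 4. The difference was -75.8 points (adjusted p = 0.00905). The level was 92.0% in SSEA1− cells, 89.8% in iPSC and 92.8% in male ESC, and 65.1% in female ESC. On chromosome 7 (133846001 to 133847000), 1.33 kb from the placed start of Coro1a, an actin regulator of leukocytes, SSEA1+ 1 and 2 stood at 3.45% and 22.2%, against 77.8 to 88.6% in MEF. It stood at 90.9% in SSEA1− cells and 73.2% in iPSC. The Coro1a tile rests on 29 CpG reads in SSEA1+ 1, 18 in SSEA1+ 2 and 18 in MEF 2.

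Losses shared with SSEA1− cells but not with iPSC formed another pattern. On chromosome 2 (27167001 to 27168000), SSEA1+ 1 and 2 stood at 10.3% and 11.7%, over 838 and 308 CpG reads, against 89.8%, 68.7%, 94.8% and 93.8% in MEF 1 to 4. Of the other groups, SSEA1− cells were low as well, at 13.5%, but iPSC stood at 72.9% and male ESC at 88.0%. Over the 3 CpGs shared with MEF 2 the difference was -58.3 points. The other 7 of the 12 lower tiles named by rule differed by -76.4 to -65.7 points, and in each of the 12 the SSEA1+ samples lay under all MEF samples, as the rule requires.

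Among gains, the largest differed between the SSEA1+ samples. On chromosome 15 (75649001 to 75650000, 5 CpGs), SSEA1+ 1 and 2 stood at 90.5% and 48.5%, against 5.05%, 7.55%, 8.24% and 10.5% in MEF 1 to 4 (adjusted p = 0.0302). Male ESC stood at 82.8% and iPSC at 67.1%, but SSEA1− cells at 16.7%. The tile on chromosome 5 (68088001 to 68089000, 3 CpGs), 88.9 kb from the placed start of Shisa3, was high in SSEA1+ cells and low in all other groups. SSEA1+ 1 and 2 stood at 65.4% and 61.8% there, against 4.65%, 2.17%, 6.19% and 7.58% in MEF 1 to 4. SSEA1− cells stood at 0%, iPSC at 13.4%, female ESC at 3.98% and male ESC at 17.8%.

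On chromosome 3 (143972001 to 143973000, 5 CpGs), SSEA1+ 1 and 2 stood at 56.5% and 51.9%, against 5.13%, 9.68%, 15.03% and 15.3% in MEF 1 to 4. This gain was seen in pluripotent cells, at 89.1% in iPSC and at 86.9% in male and 69.0% in female ESC, and not in SSEA1− cells, at 10.5%. The other 9 higher tiles named by rule differed by 38.9 to 52.2 points. At each of these 9 male MEF stood above female MEF. The gap was widest at the tile ranked 3, at 61.7% against 22.8%, and narrowest at that ranked 9, at 5.55% against 3.22%.

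**Figure D4:**
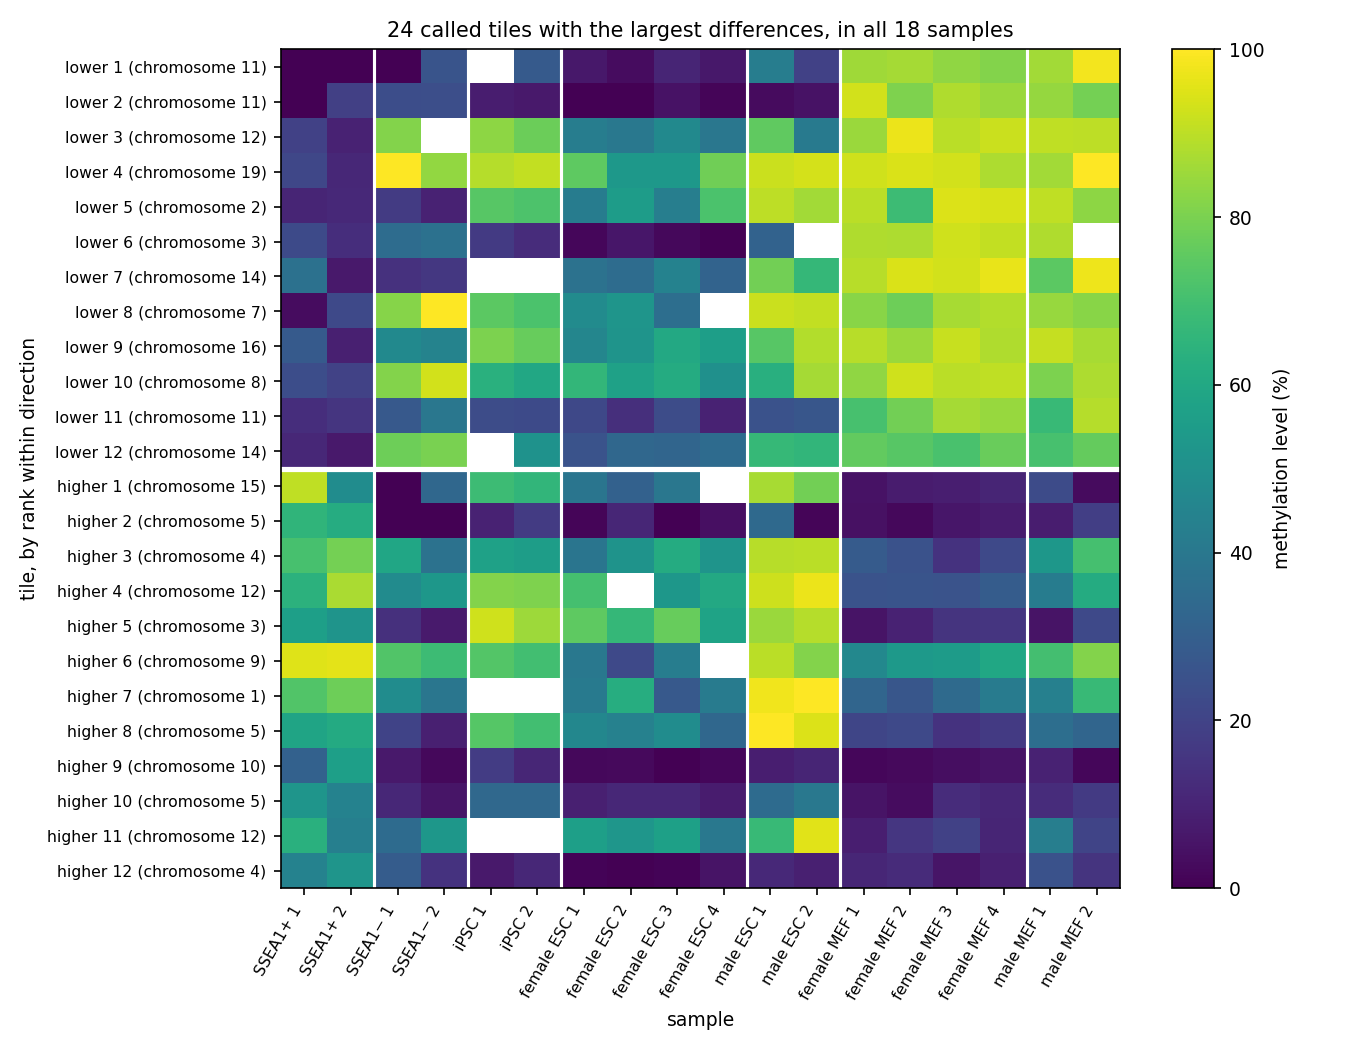
Methylation level in percent (colour) of the 12 lower and 12 higher tiles named by rule (rows, ranked by difference within direction) in all 18 samples (columns, by group); white cells held fewer than 3 CpGs. SSEA1+ columns are dark in the upper rows, where MEF columns are bright, and bright in the lower rows; SSEA1− and iPSC columns follow MEF in some rows, such as lower 4, and SSEA1+ in others, such as lower 2.

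Runs of called tiles in 1 direction, at most 10 kb apart, numbered 6 in the lower direction, of 2 tiles each, and none in the higher. The number that calls spread at random over the tested tiles would give was not computed, so clustering was not tested. A run on chromosome 8 (119804001 to 119807000, 23.1 kb from the placed start of Cmip) averaged 19.5% in SSEA1+ cells and 76.9% in MEF. A run on chromosome 17 (25856001 to 25860000) lay 1.53 kb from the placed start of Gng13, a G protein gamma subunit known from taste cells, and averaged 54.6% in SSEA1+ cells and 93.6% in MEF.

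Within 5 kb of a placed gene start, 45 of 9529 tiles were lower and 4 higher. Of the 5318 among them that held a start, 0.0376% were lower and 0.0188% higher. For the remaining 4211 the shares were 1.02% and 0.0712%, against 0.861% and 0.177% of all tiles. The genes below were named after their values were seen. Near Spint2, a protease inhibitor of epithelial cells, a tile 0.996 kb from the start stood at 57.8% and 54.5% in SSEA1+ 1 and 2, against 90.6%, 86.9%, 88.5% and 89.8% in MEF 1 to 4. It was lower still in pluripotent cells, at 18.9% in iPSC, 17.4% in ESC of female and 10.04% in those of male origin, and stood at 66.8% in SSEA1− cells. The Spint2 promoter window, which lies outside this tile, was not lower, at 9.36% and 12.4% in SSEA1+ 1 and 2. MEF 1 to 4 stood at 1.64%, 14.2%, 5.55% and 3.99% in that window, so the groups overlapped. A tile 2.71 kb from the start of Sipa1, a Rap GTPase activator, stood at 47.8% and 0% in SSEA1+ 1 and 2, against 84.0 to 93.2% in MEF and 95.9% in SSEA1− cells. The SSEA1+ samples differed widely at Sipa1 and were alike at Spint2.

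A tile near Wt1os, a transcript next to the kidney and gonad regulator Wt1, stood at 2.96% and 1% in SSEA1+ 1 and 2, against 37.9%, 31.5%, 49.9% and 53.3% in MEF 1 to 4. There SSEA1− cells had 11.8%, iPSC 38.3% and male ESC 55.6%. Near Kank2, which links integrins to the cytoskeleton, the tile stood at 0% and 8.11% in SSEA1+ 1 and 2, against 32.6%, 52.9%, 36.8% and 44.2% in MEF 1 to 4, and at 4.13% in SSEA1− cells. Both populations of the reprogramming cultures were low at the Wt1os and Kank2 tiles, and iPSC, at 44.1% for Kank2, were not.

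Samples outside the comparison showed how the called tiles stand in other cells. Of the lower tiles, 262 were measured in all 7 groups, and each outside group was set against male MEF, which took no part in calling these tiles. The median of these 262 tiles was 28.5% in female ESC, 43.6% in iPSC, 60.3% in male ESC, 61.1% in SSEA1− cells and 80.3% in male MEF. At least 20 points under male MEF were 94 of them in SSEA1− cells (35.9%, against 2.91% of all 32195 tiles) and 170 in iPSC (64.9%, against 25.8%). Among ESC these were 231 in females (88.2%, against 39.5%) and 115 in males (43.9%, against 18.4%). Tiles of high level have more room to be lower, so the same was done for the 209 lower tiles at 60% or more in male MEF. There the shares were 36.8% in SSEA1− cells (background 3.89%), 67.9% in iPSC (53%), 43.5% in male ESC (37.1%) and 91.9% in female ESC (80.7%). The share stood furthest above its background in SSEA1− cells, the samples of the same library type as SSEA1+ cells.

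Of the 262 lower tiles, 61 (23.3%, against 24.9% of all tiles) stood at 60% or more in both iPSC and SSEA1− cells, as at the Gnaq tile. Another 49 (18.7%, against 51.6% of all tiles) stood under 40% in SSEA1− cells, iPSC and female ESC alike, as at the Nxn tile. Among tiles at 60% or more in male MEF, the first pattern held for 61 of 209 lower tiles (29.2%, against 56.2% of all such tiles) and the second for 12 (5.74%, against 0.402%).

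The higher tiles were also often methylated in male ESC and iPSC. Of 56 measured in all groups, 30 were at least 20 points above male MEF in male ESC (53.6%, against 4.13% of all tiles), 20 in iPSC (35.7%, against 2.67%), 10 in female ESC (17.9%, against 0.677%) and 4 in SSEA1− cells (7.14%, against 0.177%). Of 38 that stood under 40% in male MEF, 20 were 20 points above it in male ESC (52.6%, against 4.71% of the 16766 tiles under 40%), 16 in iPSC (42.1%, against 3.99%), 10 in female ESC (26.3%, against 1.11%) and 3 in SSEA1− cells (7.89%, against 0.137%). In 11 of the 56 (19.6%, against 45.5% of all tiles) all 4 of these groups stood under 20%, as at the Shisa3 tile. The median of the 56 was 14.7% in female and 27.2% in male MEF, against 24.5% and 28.7% over all tiles.

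Promoters showed no called change. For 6195 genes a window was tested between 1000 bases before and 500 after the placed start. The quasi-binomial model called 0 lower and 0 higher (0%), and limma likewise called 0, with 1067 at an unadjusted p under 0.05. Without MEF 2 the model called 16 lower and 1 higher, and with all 18 samples in the fit 15 and 2. At an unadjusted p under 0.05 there were 1402 promoters (22.6%), 1319 of them lower and 83 higher in SSEA1+ cells. That number was 997 with MEF 3 and 4 summed, 788 without MEF 3, 709 without MEF 4, 555 without SSEA1+ 2 and 230 without SSEA1+ 1, but 2366 without MEF 2. Against MEF 2 and male MEF 1, the MEF libraries of the same type as SSEA1+ cells, it was 380. The only adjusted p under 0.05 was that of Gm4129, at 0.0230, with a difference of 7.24 points, too small for a call. It stood at 7.88% and 7.38% in SSEA1+ 1 and 2, against 0.161 to 0.544% in MEF. Levels were low in both groups: 6032 promoters (97.4%) stood under 10% in SSEA1+ cells and 5813 (93.8%) in MEF. The median difference was -0.471 points over all MEF and -0.0105 points against MEF 2 and male MEF 1.

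Against MEF 2 alone, 4 promoters were at least 20 points lower and 1 higher in both SSEA1+ samples, with no test, and are named for that reason. Adgrl4 stood at 25.3% and 3.704% in SSEA1+ 1 and 2, against 74.2%, 54.1%, 96.9% and 93.9% in MEF 1 to 4. Over the 6 CpGs of the sequence printed above that MEF 2 shared with both SSEA1+ samples, Adgrl4 averaged 25.9% and 2.38% in SSEA1+ 1 and 2 and 38.2% in MEF 2. Over the window the level was 57.7% in SSEA1− cells and 78.3% in iPSC.

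The Lep promoter stood at 52.9% and 51.0% in SSEA1+ 1 and 2, against 76.9%, 85.8%, 78.1% and 76.4% in MEF 1 to 4, and was unmethylated in no group. Over 6 CpGs of the printed sequence, Lep averaged 58.1% and 48.3% in SSEA1+ 1 and 2 and 85.4% in MEF 2. Its levels were 47.8% in iPSC, 46.3% in female ESC and 67.5% in SSEA1− cells. Its tile on chromosome 6 (29010001 to 29011000) was called, with an adjusted p of 0.0382. The promoter window, also of 11 CpGs, had the same level as the tile in every sample. In the same model over promoters its adjusted p was 0.195 and it was not called, so the tile is no separate result. Gm16617, a predicted gene, stood at 47.2% and 43.7% in SSEA1+ 1 and 2, against 70.5 to 82.5% in MEF. At the 2 CpGs of its promoter sequence shared with MEF 2 the values were 72.2% and 91.7% in SSEA1+ 1 and 2 and 76.25% in MEF 2, so the gap was not seen there. Babam1, a subunit of a DNA repair complex, stood at 7.26% and 10% in SSEA1+ 1 and 2 and at 34.2% in MEF 2, but at 2.54 to 14.9% in the other MEF, so its groups overlapped.

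The Thap7 promoter was the one that was higher. Thap7 encodes a zinc finger repressor. Its window stood at 29.4% and 26.3% in SSEA1+ 1 and 2, against 1.06%, 0%, 7.73% and 6.62% in MEF 1 to 4. It stood at 29.6% in SSEA1− cells, so all 4 libraries of the reprogramming cultures were high, while iPSC stood at 6.45%, female ESC at 0.224%, male ESC at 1.31% and male MEF at 1.94%. The promoter as a whole was not called (adjusted p = 0.106), but a 1 kb tile of 17 CpGs over its start was (adjusted p = 0.00905), at 39.3% and 38.5% in SSEA1+ 1 and 2, against 0 to 8.57% in MEF. Over the 3 CpGs of that tile shared with MEF 2 the difference was 61.5 points. The 2 CpGs of the RefSeq promoter sequence shared with MEF 2 stood at 0% in SSEA1+ 1, SSEA1+ 2 and MEF 2, so the gain was not seen at those.

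Germline promoters stood near their fibroblast level in SSEA1+ cells, with Smc1b apart. Of 35 listed genes 9 were placed and 8 tested; none was called, and their median difference was -0.299 points, beside -0.471 over all promoters. Hormad1 stood at 90.03% and 85.2% in SSEA1+ 1 and 2, against 90.2%, 81.1%, 84.4% and 87.4% in MEF 1 to 4. In ESC it stood at 5.05% in females and 33.1% in males. Slc25a31 stood at 95.8% and 84.9% in SSEA1+ 1 and 2, and at 84.6 to 93.9% in MEF. There female ESC stood at 25.8%, male ESC at 62.7% and iPSC at 35.1%. Mael stood at 78.8% and 90.8% in SSEA1+ 1 and 2, against 79.4 to 91.6% in MEF. There iPSC stood at 25.2%, female ESC at 17.9% and male ESC at 29.2%. In all 3, the SSEA1+ samples fell within 2 points of the MEF range and above every ESC sample.

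Ddx4, an RNA helicase of germ cells, stood at 88.4% and 70.7% in SSEA1+ 1 and 2, against 69.9%, 59.1%, 73.1% and 75.0% in MEF 1 to 4. Hormad2, a meiotic axis protein, stood at 52.7% and 41.9% in SSEA1+ 1 and 2 and at 47.7 to 66.9% in MEF, and Tex101, a sperm surface protein, at 84.98% and 76.5% against 85.3 to 87.4%. Male ESC stood at 90.2% at Tex101, but at 28.2% at Ddx4 and 33.6% at Hormad2. Tdrd5, a piRNA pathway protein, was low in both groups, at 0.877% on average in SSEA1+ cells and 2.22% in MEF. Smc1b, a meiotic cohesin subunit, had the widest gap of the list, at 9.12% and 2.48% in SSEA1+ 1 and 2 and at 39.2%, 17.5%, 51.5% and 56.4% in MEF 1 to 4. Over 6 CpGs of its promoter sequence that MEF 2 shared with both SSEA1+ samples, Smc1b averaged 3.82% and 2.84% in SSEA1+ 1 and 2 and 9.28% in MEF 2. Its adjusted p was 0.208.

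The promoters that are methylated in fibroblasts were somewhat lower in SSEA1+ cells. Of 45 promoters at 50% or more in male MEF, 35 stood at 50% or more in SSEA1+ cells and 38 in SSEA1− cells, against 17 in iPSC, 23 in male ESC and 7 in female ESC. Their median was 70.02% in SSEA1+ cells and 79.8% in female MEF, beside 76.5% in SSEA1− cells, 46.7% in iPSC, 51.7% in male and 25.05% in female ESC. No test was made of these counts.

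No imprinted promoter was called, though all 8 tested of 30 listed had a lower mean in SSEA1+ cells, with differences of -8.23 to -0.228 points. Over all promoters 84.9% had a lower mean. The median difference of the 8 was -1.39 points, beside -0.471 over all promoters, and their adjusted p was at least 0.238. Plagl1, an imprinted zinc finger factor, stood at 40.1% and 31.5% in SSEA1+ 1 and 2, against 37.6%, 38.6%, 42.1% and 43.4% in MEF 1 to 4. Female ESC stood at 1.55% there and iPSC at 15.3%, but male ESC at 45.1%. Zrsr1, a splicing factor gene expressed from the paternal copy, stood at 50.4% and 32.02% in SSEA1+ 1 and 2, and at 37.3 to 47.7% in MEF. Mcts2, a paternally expressed retrogene, stood at 39.3% and 35.8% in SSEA1+ 1 and 2, against 36.7 to 50.1% in MEF. Igf2r, the receptor that clears IGF2, stood at 28.5% and 15.3% in SSEA1+ 1 and 2, against 23.1 to 42.1% in MEF. In male ESC, Zrsr1 stood at 27.2%, Mcts2 at 35.6% and Igf2r at 3.87%. SSEA1+ 2 was the lowest of the 6 samples at each of these 4 promoters. The other 4 stood at 0 to 14.6% in every one of the 6 samples.

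**Figure D5:**
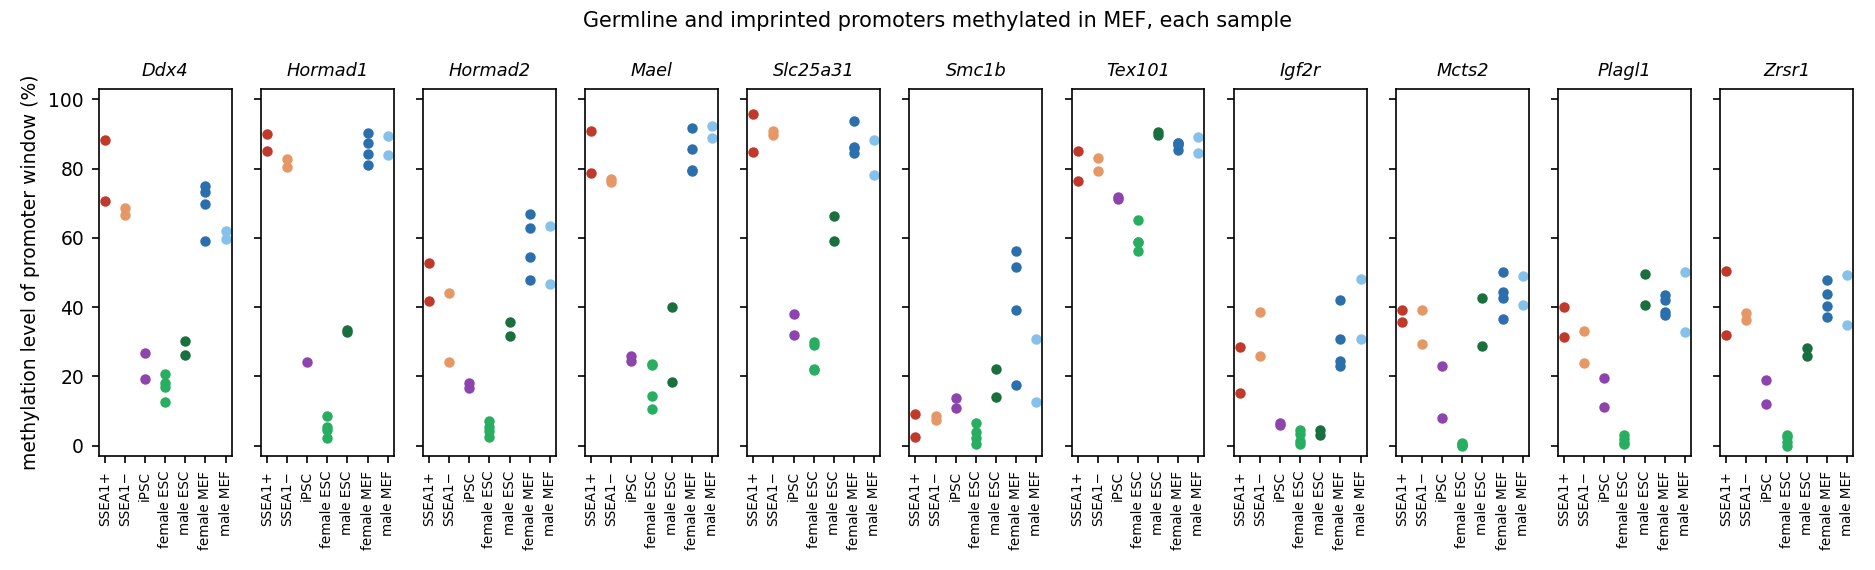
Methylation level in percent (vertical axis) of the promoter windows of 7 germline and 4 imprinted genes with at least 20% in male MEF; each point is a sample, by group along the horizontal axis. SSEA1+ points lie near those of MEF, except at Smc1b, and above those of female ESC at 10 of the 11 genes without overlap, Smc1b being the exception.

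Promoters of the other lists were mostly low in both groups. All 8 tested pluripotency promoters of 36 listed stood at 5% or less in every one of the 6 samples. They included Sox2, one of the reprogramming factors, at 3.07% and 3.55% in SSEA1+ 1 and 2 and 1.06 to 5% in MEF, and Klf4, another, at 0.134% and 0%, against 0 to 0.733%. Fibroblast and mesenchymal promoters, 6 tested of 37, had a median difference of -0.179 points, and epithelial promoters, 4 of 23, one of -1.97 points. Among 17 of 65 developmental promoters, Hoxa6, a limb and axial patterning gene, had the widest gap, at 22.0% and 9.37% in SSEA1+ 1 and 2 against 28.9 to 32.4% in MEF (adjusted p = 0.208). No list held a called promoter. The identity of the cells could not be checked by promoter methylation, since none of the 6 fibroblast and 7 pluripotent marker promoters was placed. The single marker promoter tested was that of Kdr, a VEGF receptor of endothelial cells, at 0% in both SSEA1+ samples, against 1.32%, 0.279%, 24.2% and 25% in MEF 1 to 4.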

How the data were processed

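Genomic DNA of 18 mouse samples was read by reduced representation bisulfite sequencing. The deposited tables hold 2 counts for each CpG of each strand, the reads that were methylated and the total, placed on mm9 according to the submitters' processing notes. The aligner, caller and filters were not given in the sources used here. Strain differences from mm9 were not examined. Groups and replicate numbers come from the labels. The members and gene lists were chosen with earlier results of these data known.

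Counts of both strands were added, and CpGs with under 5 reads in a sample were left out of it. Reads were summed over autosomal tiles of 1 kb with at least 3 remaining CpGs in each of the 6 samples. A level is the percentage of reads methylated, and a difference in points is the SSEA1+ mean minus the MEF mean. Tiles and promoters were tested with a quasi-binomial logistic model, with the dispersion moderated across features by the empirical Bayes step of limma and set to at least 1, F tests, and Benjamini-Hochberg adjustment over all features. Calls needed a difference of 20 points or more and an adjusted p under 0.05. The model was tested on simulated counts. Mean levels, 1 value for each sample, were tested by exact permutation, 2-sided. The depth was 11833113 to 46130295 CpG reads per sample, and the median tile held 144.5 CpG reads in a sample. A read that covers several CpGs is counted once for each, so these exceed the number of reads.

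RefSeq promoter sequences (GRCm38.p6) were placed on mm9 by CpG spacing on the same chromosome, with at least 6 CpGs matched, no read CpG unmatched, and 3 more matches than the next place. Of 17846 sequences with at least 6 CpGs, 7589 (42.5%) were placed, and 8 that disagreed with their neighbours were dropped. Mirrored sequences were placed in 0.314% of cases. Placement leaves out CpG-poor promoters and those with few reads.

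Tiles named in the text were, in each direction, the 12 that differed most among those called in which groups did not overlap and both SSEA1+ samples were at least 20 points from MEF 2, at most 1 per 100 kb, and the longest runs. The numbers shared by SSEA1+ and MEF samples did not pair them (correlation of deviations -0.0163 and 0.0450 over tiles). Library types were split by how many CpGs had reads from both strands, under 8% for one type and over 14% for another. Software was limma 3.58.1 in R 4.3.3, and numba 0.67.0, scipy 1.17.1, pandas 2.3.3 and numpy 2.4.6 in Python 3.11.15.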

Additional observations from a re-analysis of the deposited data

Results flagged for a closer look

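Of 40 sets of 4 MEF samples examined (level comparisons, named tiles, and germline and imprinted promoters), 2 had a sample far from the other 3 by Dixon's criterion. Chance flags about 1 in 20 such sets. Over tiles at 80 to 100% in male MEF, MEF 2 stood at 85.6%, under the other MEF, at 86.5 to 86.6%. In the tile on chromosome 12 (80847001 to 80848000) that ranked 4 among the higher tiles, MEF 4 stood at 28.9%, above the other MEF at 25.7 to 26.1%, while SSEA1+ 1 and 2 stood at 64.4% and 87.2%.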

How the results depend on the processing

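Alternatives were a minimum of 10 or 3 reads, other tile and class sizes, other sets of CpGs, other models and other sets of samples. Leaving out 1 sample at a time gave 0 to 646 lower and 0 to 105 higher tiles, and 0 to 16 lower and 0 to 1 higher promoters. Against 355 lower and 73 higher tiles, there were 79 and 29 at 10 reads, 593 and 101 at 3 reads, 29 and 3 with limma, 74 and 13 over the CpGs with 5 reads in every sample, and 183 and 47 with tiles of 500 bases. With MEF 3 and 4 summed 0 and 0 were called, which leaves fewer samples. Replicate numbers did not pair the samples, and with a replicate block 0 and 0 were called. With all 18 samples there were 771 and 148, and 208 and 75 with library type as a term, over 32195 tiles; promoters then gave 15 lower and 2 higher, and 4 and 1. Capping reads at 50 per CpG gave 354 and 72. The set of MEF 2 and male MEF 1 in place of the 4 MEF, and the promoters over CpGs of all 6 samples, were chosen after seeing the data and called 0 and 0. MEF 2 alone, with no test, gave 807 lower and 442 higher tiles and 4 lower and 1 higher promoters at 20 points in both SSEA1+ samples. The cause of these changes was not tested.

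The autosomal level difference was -3.42 to -1.61 points without 1 sample, -1.02 from MEF 2 over the CpGs those 3 libraries share, -12.6 over each sample's own CpGs, where it was -4.74 from MEF 2, and -10.4 weighted by reads, where it was -6.43 from MEF 2. Without 1 sample, dense tiles differed by -1.70 to -1.06 points and tiles at 0 to 20%, 20 to 80% and 80 to 100% in male MEF by -1.36 to -0.642, -6.81 to -2.04 and -4.44 to -2.53. From MEF 2 these 4 differences were -0.239, 0.257, -1.86 and -2.77, so that of the lowest class turned. No exact permutation p fell under 0.05 in any setting, as none could with this number of samples. The 24 named tiles were no longer called in 197 of 373 values under 18 settings; their direction was fixed by the rule that named them.

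Few reads limit single tiles: several named tiles rest on 18 to 60 CpG reads in a sample, from fewer molecules, and intervals for single values are not given since CpGs of a read are not independent.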
